A study of Mus musculus with 8 samples.

Results

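The genes described here encode the core of the transforming growth factor beta (TGF-beta) pathway: 3 ligands (Tgfb1, Tgfb2, Tgfb3), both signalling receptors (Tgfbr1, Tgfbr2), 4 latent TGF-beta binding proteins (Ltbp1, Ltbp2, Ltbp3, Ltbp4) and the inhibitor Smad7. They were chosen by symbol, 10 genes of 17164 in the table, and each was present under its symbol and Entrez gene ID. Of the 10, 9 reached 1 FPKM (fragments per kilobase of gene and per 1000000 reads) in at least 2 libraries and were tested. Tgfb2 reached it in 1 library and is given by its values. Tgfb3, Ltbp1, Ltbp2 and Ltbp3 were under 1 FPKM in both control libraries, so these 4 genes passed the filter only through the injured livers.

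The livers came from male C57BL/6 mice in 4 groups, with 2 RNA-seq libraries of whole liver per group. In the DEN+CCl4 group, pups were injected intraperitoneally with diethylnitrosamine (DEN, 0.67%), a liver carcinogen, when 2 weeks old. Injections of carbon tetrachloride (CCl4, a hepatotoxin, 20% in olive oil) followed from week 8 of age to the end at week 22. The groups DWYG-M and DWYG-H had both of these agents as well, and were in addition given Diwu Yanggan (DWYG) capsules, a herbal medicine, starting at week 17. The dose was 1 multiple of the clinical equivalent in DWYG-M and 2 multiples in DWYG-H. The control group had saline instead of DEN, with no CCl4 on record. Each group had 6 mice, and 2 livers of each were drawn at random for sequencing. The p-values rest on the spread between the 2 livers of a group, pooled over the 4 groups and drawn toward that of other genes. Whether a piece of liver was tumour or surrounding tissue was not given, nor whether a vehicle stood in for CCl4 or DWYG in the groups without them.

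TGF-beta is made as an inactive complex. The propeptide of the ligand stays wrapped around it, and an LTBP ties that complex to fibrillin and other matrix until integrins, proteases or thrombospondin release it. The free ligand binds the type II receptor TGFBR2, which recruits and phosphorylates the type I receptor TGFBR1, which in turn phosphorylates SMAD2 and SMAD3. In injured liver this pathway is known for driving stellate cells and portal fibroblasts to become matrix-producing myofibroblasts. SMAD7, itself a target gene, binds the type I receptor and shuts the signal off.

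Libraries held between 17345627 and 19191382 counts, and 10101 to 11556 genes reached 1 FPKM. The DEN+CCl4 replicates correlated with each other across genes at r = 0.960, against 0.978 to 0.984 for the replicates of the other groups. With the DWYG libraries, r was 0.963 to 0.976 for DEN+CCl4 replicate 1 and 0.946 to 0.966 for replicate 2. The major urinary protein genes took from 0.563% to 15.4% of the counts, with both control libraries at the high end, and this share moves FPKM and TPM of all other genes. Fold changes below are therefore on counts scaled by TMM, and levels are in FPKM.

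**Figure D1:**
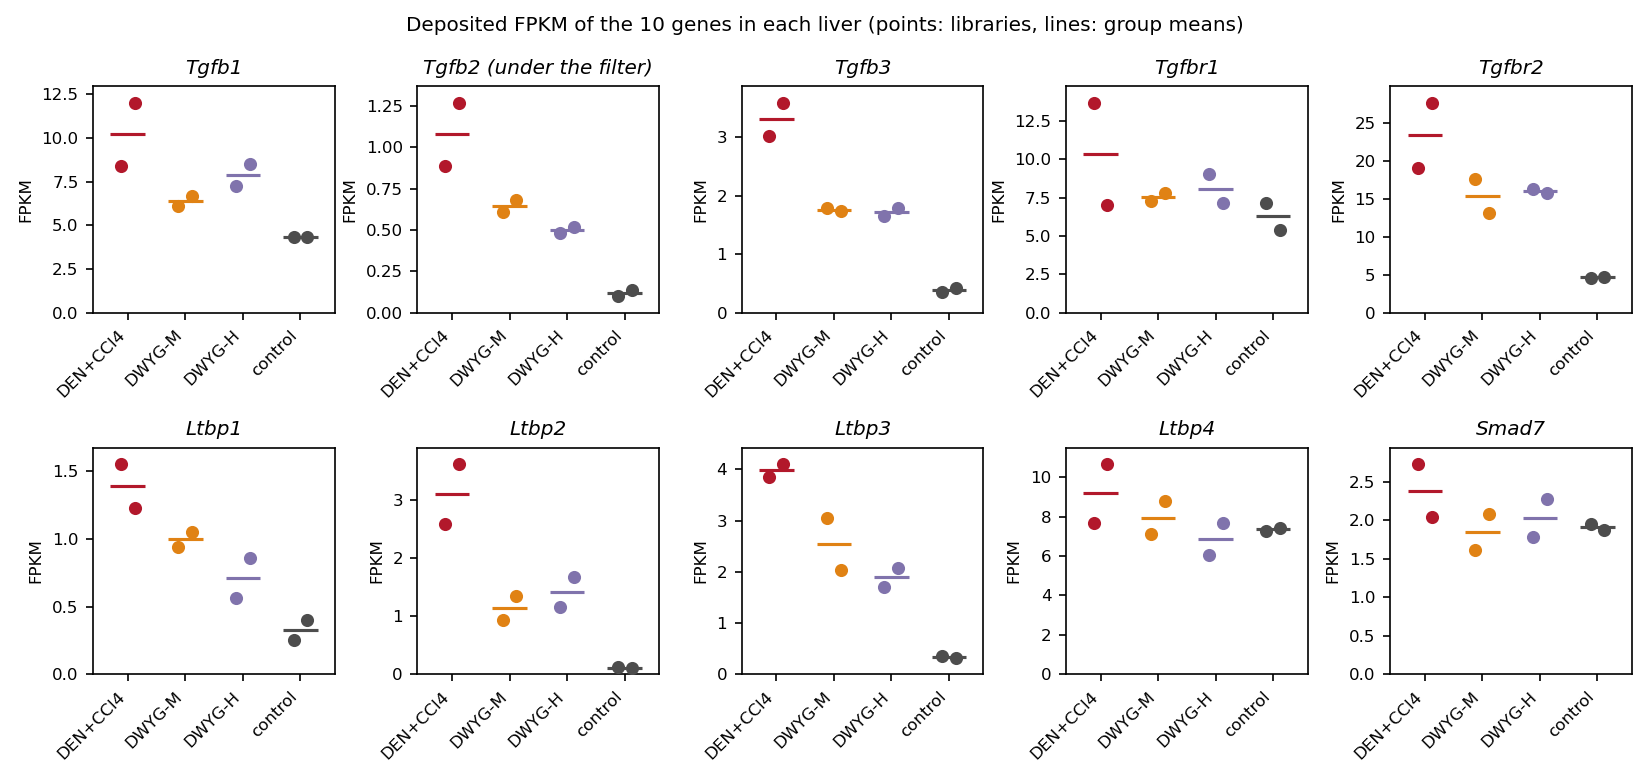
FPKM of the 10 genes in each library, 1 panel per gene with its own linear axis from 0, with points for libraries and a line for the mean of the 2 libraries of a group. Tgfb3, Ltbp2 and Ltbp3 are under 1 FPKM in both control libraries and above 1 in every DEN+CCl4 library, whereas Ltbp4 and Smad7 sit at like levels in all 4 groups.

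In DEN+CCl4 livers the ligand Tgfb3, the receptor Tgfbr2 and the latent binders Ltbp1, Ltbp2 and Ltbp3 rose, Tgfb1 rose by the smallest fold of those called, and Tgfbr1, Ltbp4 and Smad7 did not pass the test. The largest fold was that of Ltbp2, 24.04-fold over control, followed by Ltbp3 at 10.4-fold and Tgfb3 at 6.93-fold. In edgeR's quasi-likelihood test with Benjamini-Hochberg adjustment, 6 of the 9 tested genes were called higher and none lower at an adjusted p under 0.05. Of all genes tested, 15.1% were called higher and 7.12% lower. FPKM did not overlap and was higher for 8 of the 9 genes, all but Tgfbr1, against 47.1% of all genes. That count is on FPKM, which the high major urinary protein share of the control libraries moves for all other genes. Ltbp4 and Smad7 are in the count, with log2 fold changes of 0.07 and 0.06 on TMM-scaled counts. The median log2 fold change over the 9 genes was 1.82, against -0.01 over all genes tested. Both counts and the median include the 4 genes that passed the filter only through the injured livers. The counts and the median therefore describe these genes and are no test of them.

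Among the ligands, Tgfb1, the form made by most cell types and the main one in liver, had 8.39 and 12 FPKM in DEN+CCl4 livers, 6.10 and 6.65 in DWYG-M livers, 7.22 and 8.48 in DWYG-H livers, and 4.31 and 4.35 in control livers. Every liver given DEN and CCl4 lay above both controls. Tgfb1 was 1.98-fold higher in DEN+CCl4 than in control livers (log2 fold change 0.99, SE 0.24, 95% interval 0.42 to 1.55, edgeR adjusted p = 0.025). This call was lost without DEN+CCl4 replicate 2, where the log2 fold change was 0.59. It was also lost without control replicate 1, at 0.92, and without control replicate 2, at 1.02. In these fits fewer of all genes were called as well. With only these 2 groups fitted, the edgeR adjusted p of Tgfb1 was 0.0649.

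Tgfb3, a ligand best known from palate and lung development and from fibroblasts, had 3.03 and 3.59 FPKM in DEN+CCl4 livers, 1.79 and 1.74 in DWYG-M livers, 1.66 and 1.79 in DWYG-H livers, and 0.36 and 0.43 in control livers. The 4 groups fell into 3 levels with no overlap between them: DEN+CCl4 highest, both DWYG doses between and control lowest. The rise in DEN+CCl4 livers was 2.79 on the log2 scale (SE 0.27, 95% interval 2.18 to 3.40, edgeR adjusted p = 0.000932). The deposited counts behind it were 169 and 211 in DEN+CCl4 livers and 20 and 23 in control livers.

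Tgfb2, a ligand that binds TGFBR2 poorly without the co-receptor betaglycan, had 0.89 and 1.27 FPKM in DEN+CCl4 livers, 0.61 and 0.68 in DWYG-M livers, 0.48 and 0.52 in DWYG-H livers, and 0.10 and 0.14 in control livers. Its counts were 79 and 117 in DEN+CCl4 livers, 54 and 59 in DWYG-M livers, 40 and 47 in DWYG-H livers, and 10 and 12 in control livers. No group overlapped another, and the order was the same as for Tgfb3, with DWYG-H under DWYG-M. Tgfb2 was below the filter, so it has no result among the 9. With no filter on low values it was 2.76 higher in DEN+CCl4 than in control livers on the log2 scale (SE 0.37, edgeR adjusted p = 0.000883).

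The make-up of the ligand pool differed between the groups, and shares within a library do not depend on how libraries are scaled. Tgfb1 held 68.2% and 71.2% of the summed FPKM of the 3 ligands in DEN+CCl4 livers, 71.8% and 73.3% in DWYG-M livers, 77.1% and 78.6% in DWYG-H livers, and 90.4% and 88.4% in control livers. Tgfb3 held 24.6% and 21.3% in DEN+CCl4 livers, 21.1% and 19.2% in DWYG-M livers, 17.7% and 16.6% in DWYG-H livers, and 7.55% and 8.74% in control livers. Tgfb1 was thus the most abundant ligand in all 8 libraries, and its share was lower in each of the 6 injured livers than in both controls. With 2 libraries against 2, an exact permutation test of a single share could not reach an adjusted or unadjusted p under 0.05, and none was made.

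**Figure D2:**
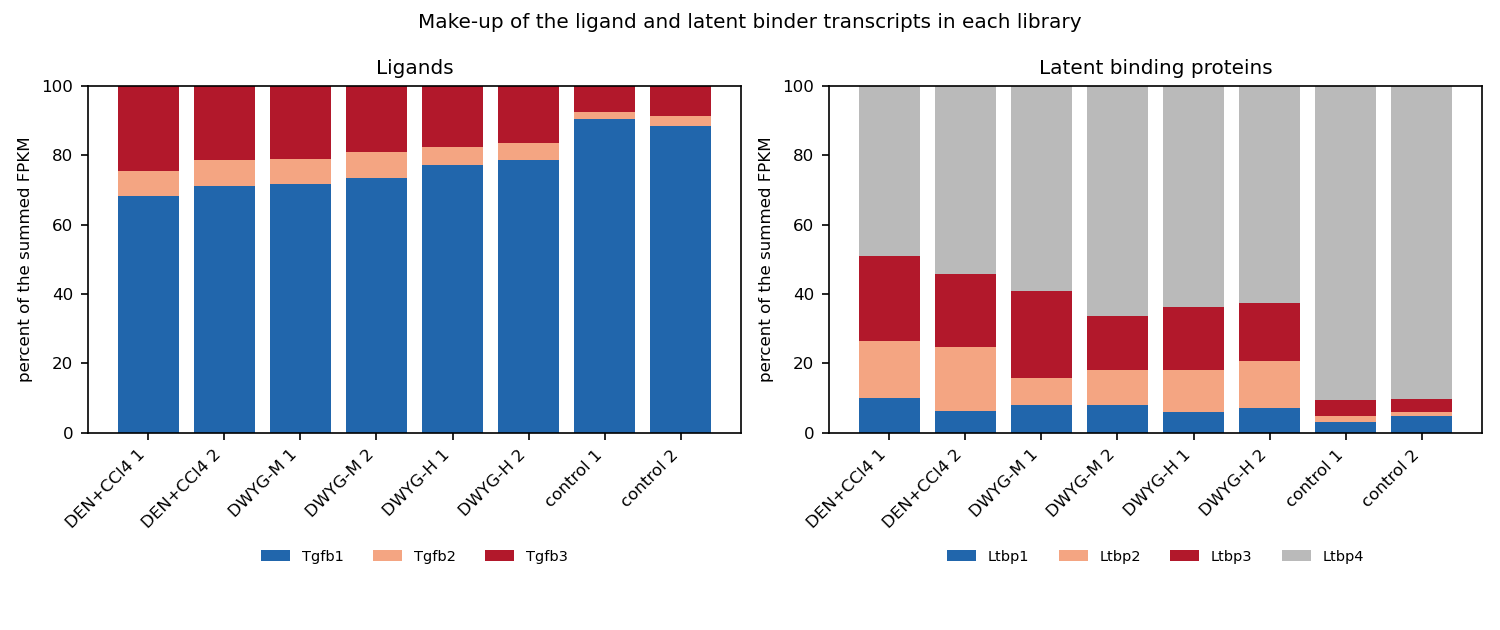
Share of the summed FPKM taken by each of the 3 ligands and by each of the 4 latent binders, in percent, in stacked bars with 1 bar per library. Tgfb1 takes 68.2% and 71.2% of the ligand sum in DEN+CCl4 livers and 90.4% and 88.4% in control livers, and Ltbp4 takes 49.0% and 54.4% of the binder sum in DEN+CCl4 livers and 90.8% and 90.2% in control livers.

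Of the receptors, Tgfbr2 rose and Tgfbr1 did not pass the test, and the difference between their fold changes was not tested. Tgfbr2, the type II receptor that binds the ligand first, had 19.08 and 27.70 FPKM in DEN+CCl4 livers, 17.60 and 13.15 in DWYG-M livers, 16.38 and 15.82 in DWYG-H livers, and 4.62 and 4.72 in control livers. All 6 injured livers lay above both controls, and it was 4.21-fold higher in DEN+CCl4 than in control livers (log2 fold change 2.07, SE 0.26, edgeR adjusted p = 0.00221). Tgfbr1, the type I receptor whose kinase acts on the SMADs, had 13.68 and 7.05 FPKM in DEN+CCl4 livers, 7.25 and 7.83 in DWYG-M livers, 9.07 and 7.12 in DWYG-H livers, and 7.14 and 5.41 in control livers. Its high value was that of DEN+CCl4 replicate 1 alone, and the other 5 injured livers lay between 7.05 and 9.07, against 7.14 in the higher control.

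The log2 fold change of Tgfbr1 in DEN+CCl4 against control was 0.43 (95% interval -0.17 to 1.03, edgeR adjusted p = 0.271), an interval that holds both no change and a change of 1.03. Without DEN+CCl4 replicate 1 it was 0.02 (adjusted p = 0.954), and without replicate 2 it was 0.76 (adjusted p = 0.0561). The summed FPKM of 12 Kupffer cell and macrophage markers was also higher in DEN+CCl4 replicate 1, at 390 against 267 in replicate 2, and its part in the Tgfbr1 value was not tested. The ratio of Tgfbr2 to Tgfbr1, in FPKM, was 1.39 and 3.93 in DEN+CCl4 livers, 2.43 and 1.68 in DWYG-M livers, 1.81 and 2.22 in DWYG-H livers, and 0.647 and 0.872 in control livers. Tgfbr2 exceeded Tgfbr1 in every injured liver and in neither control.

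Of the 4 genes of the latent binder family 3 rose and 1 did not pass the test. Ltbp2, which binds fibrillin and elastic fibre proteins and, unlike the other 3, does not bind latent TGF-beta, had 2.59 and 3.61 FPKM in DEN+CCl4 livers, 0.94 and 1.35 in DWYG-M livers, 1.16 and 1.67 in DWYG-H livers, and 0.13 and 0.10 in control livers. Its counts were 293 and 440 in DEN+CCl4 livers and 13 and 11 in control livers. All groups of injured livers lay above control, and the DWYG groups lay below DEN+CCl4. The log2 fold change of DEN+CCl4 over control was 4.59 (SE 0.38, 95% interval 3.71 to 5.47, edgeR adjusted p = 0.000615).

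Ltbp3, which is secreted bound to the latent ligand, had 3.86 and 4.10 FPKM in DEN+CCl4 livers, 3.05 and 2.04 in DWYG-M livers, 1.71 and 2.08 in DWYG-H livers, and 0.36 and 0.31 in control livers. It too showed no overlap between DEN+CCl4, the DWYG groups and control, and rose by 3.38 on the log2 scale in DEN+CCl4 livers (SE 0.29, edgeR adjusted p = 0.000671). Ltbp1, the binder that carries most latent TGF-beta into the matrix of cultured fibroblasts, had 1.55 and 1.23 FPKM in DEN+CCl4 livers, 0.94 and 1.05 in DWYG-M livers, 0.56 and 0.86 in DWYG-H livers, and 0.25 and 0.40 in control livers. Its log2 fold change in DEN+CCl4 livers was 1.82 (SE 0.34, edgeR adjusted p = 0.00905), and 1.46 without control replicate 1, where the adjusted p was 0.0556.

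Ltbp4, which supports elastic fibre assembly and binds latent TGF-beta 1, had 7.70 and 10.66 FPKM in DEN+CCl4 livers, 7.11 and 8.79 in DWYG-M livers, 6.04 and 7.69 in DWYG-H livers, and 7.26 and 7.45 in control livers. In FPKM, DEN+CCl4 replicate 1 lay narrowly above the controls and replicate 2 well above them. DWYG-M and DWYG-H lay on both sides of the controls. This placement is on FPKM, which the major urinary protein share moves. On TMM-scaled counts the log2 fold change of Ltbp4 against control was -0.31 in DEN+CCl4 livers without DEN+CCl4 replicate 2. With all libraries it was -0.10 in DWYG-M and -0.31 in DWYG-H livers, and neither was called. Its log2 fold change in DEN+CCl4 livers was 0.07 (95% interval -0.49 to 0.63, edgeR adjusted p = 0.876) on TMM-scaled counts, and ran from -0.31 to 0.39 when single libraries were left out. On log2(TPM + 1), where the median of all genes stood 0.50 higher in DEN+CCl4 than in control livers, Ltbp4 was 0.57 higher. Ltbp4 held 49.0% and 54.4% of the summed FPKM of the 4 binders in DEN+CCl4 livers, 59.1% and 66.4% in DWYG-M livers, 63.8% and 62.5% in DWYG-H livers, and 90.8% and 90.2% in control livers. It was the most abundant binder in every library. The binder sums here include Ltbp2, which belongs to the family by name but does not bind latent TGF-beta. The summed FPKM of the binders per summed FPKM of the ligands was 1.28 and 1.16 in DEN+CCl4 livers, 1.42 and 1.46 in DWYG-M livers, 1.01 and 1.14 in DWYG-H livers, and 1.68 and 1.68 in control livers.

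Smad7, the inhibitor that the pathway induces, had 2.73 and 2.04 FPKM in DEN+CCl4 livers, 1.62 and 2.09 in DWYG-M livers, 1.79 and 2.28 in DWYG-H livers, and 1.96 and 1.88 in control livers. In FPKM, DEN+CCl4 replicate 1 was the highest and replicate 2 lay just above the higher control. The DWYG groups lay on both sides of the controls in FPKM, which the major urinary protein share moves. On TMM-scaled counts the log2 fold change of Smad7 against control was -0.28 in DWYG-M and -0.20 in DWYG-H livers, and neither was called. In DEN+CCl4 livers it was -0.09 without DEN+CCl4 replicate 1. The log2 fold change in DEN+CCl4 livers was 0.06 (95% interval -0.47 to 0.59, edgeR adjusted p = 0.885), an interval that reaches no further than 0.59. Without single libraries it ran from -0.09 to 0.21.

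**Figure D3:**
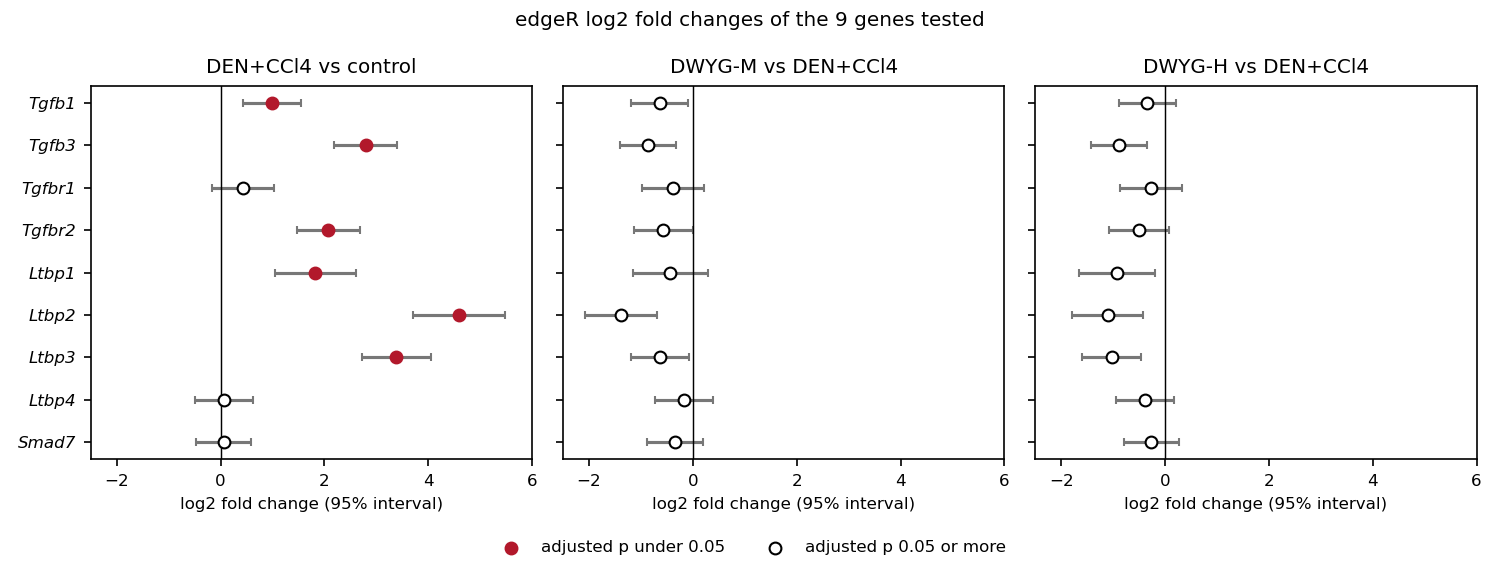
Log2 fold changes of the 9 tested genes with 95% intervals, from the edgeR fit on TMM-scaled counts, for DEN+CCl4 over control and for each DWYG dose over DEN+CCl4, with called values filled and other values open. Ltbp2, Ltbp3 and Tgfb3 have the largest positive values over control (4.59, 3.38 and 2.79), and no gene is called in either DWYG comparison.

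The order of the genes by FPKM differed between groups. In DEN+CCl4 livers Tgfbr2 came first with a mean of 23.4 FPKM, clear of Tgfbr1, Tgfb1 and Ltbp4, whose libraries overlapped at means of 10.4, 10.2 and 9.18. Ltbp3 followed at 3.98, then Tgfb3, Ltbp2 and Smad7 with overlapping libraries, then Ltbp1 and Tgfb2. In DWYG-M and DWYG-H livers Tgfbr2 was first as well, with means of 15.4 and 16.1 FPKM. In control livers Ltbp4 came first at 7.36, before Tgfbr1 at 6.28, Tgfbr2 at 4.67, Tgfb1 at 4.33 and Smad7 at 1.92, and the other 5 genes were all under 1 FPKM.

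Promoters are shown for the binder with the largest fold, for the other binder and the receptor that rose with it in all injured groups, and for the binder that did not pass the test. Each run is the RefSeq window from 250 bases before to 50 after a transcript start, on build GRCm38.p6, which differs from the GRCm39 build of the expression table. Capitals mark CAGAC on either strand (GTCTG on the other strand), the Smad-binding box, and TGANTCA, the AP-1 site. Ltbp2 is on the minus strand at chr12:84876442-84876741, Ltbp3 on the plus strand at chr19:5740650-5740949, Tgfbr2 on the minus strand at chr9:116175314-116175613, and Ltbp4 on the minus strand at chr7:27337563-27337862.
Ltbp2: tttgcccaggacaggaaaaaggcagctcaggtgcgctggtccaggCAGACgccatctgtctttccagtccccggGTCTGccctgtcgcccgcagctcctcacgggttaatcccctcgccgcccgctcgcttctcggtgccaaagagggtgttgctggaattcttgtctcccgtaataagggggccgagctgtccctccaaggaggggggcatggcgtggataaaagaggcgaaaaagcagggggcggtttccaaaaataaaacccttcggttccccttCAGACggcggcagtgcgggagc
Ltbp3: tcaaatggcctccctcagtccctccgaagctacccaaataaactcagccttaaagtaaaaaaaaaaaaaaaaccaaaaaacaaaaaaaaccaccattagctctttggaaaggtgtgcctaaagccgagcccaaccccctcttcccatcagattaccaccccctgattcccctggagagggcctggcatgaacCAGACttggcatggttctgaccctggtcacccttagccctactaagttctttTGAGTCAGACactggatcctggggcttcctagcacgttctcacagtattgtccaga
Tgfbr2: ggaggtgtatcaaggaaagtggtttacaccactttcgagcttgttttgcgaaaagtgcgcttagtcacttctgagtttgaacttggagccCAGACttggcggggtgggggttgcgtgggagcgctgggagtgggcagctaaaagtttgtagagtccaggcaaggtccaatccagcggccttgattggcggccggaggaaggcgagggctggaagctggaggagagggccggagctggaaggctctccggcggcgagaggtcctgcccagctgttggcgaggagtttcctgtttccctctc
Ltbp4: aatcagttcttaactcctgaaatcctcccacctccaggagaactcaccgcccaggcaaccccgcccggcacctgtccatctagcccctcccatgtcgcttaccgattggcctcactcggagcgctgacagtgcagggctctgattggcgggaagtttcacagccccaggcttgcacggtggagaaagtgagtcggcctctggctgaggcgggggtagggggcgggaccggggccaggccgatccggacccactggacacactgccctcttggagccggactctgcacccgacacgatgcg
The Ltbp2 window held CAGAC at 3 places, starting at -205, -176 and 28 relative to the first transcribed base at 0. Ltbp3 held it at -58 and -1, the last of these overlapping an AP-1 match at -6. Tgfbr2 held it at -160, and the Ltbp4 window shown held neither motif. CAGAC was present in 49.6% of the 32851 windows of the RefSeq table and the AP-1 letters in 7.81%, so a match is common for the first and a description only for both. RefSeq gave 12 windows for 8 of the 10 genes. Tgfb3 and Smad7 had no entry.

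Against DEN+CCl4 livers, the livers of DWYG-treated mice had lower values of all 9 tested genes at both doses, and no gene passed the test at either dose. Of all genes tested, 53.1% had a log2 fold change below 0 for DWYG-M and 52% for DWYG-H. In edgeR 0 of the 9 genes were called for DWYG-M, DWYG-H or both doses together, where 0.00862%, 0% and 0.0345% of all genes were called. At an unadjusted p under 0.05 there were 4 of the 9 genes for DWYG-M (Tgfb1, Tgfb3, Ltbp2, Ltbp3), against 12.6% of all genes. There were 4 for DWYG-H (Tgfb3, Ltbp1, Ltbp2, Ltbp3), against 8.49%, and 6 for both doses together, against 13.9%. DESeq2 called 1 gene for DWYG-M, 0 for DWYG-H and 1 for both doses, and limma called 0 in each. Of all genes DESeq2 called 1.77%, 1.03% and 2.77%. Both doses were set against the same 2 DEN+CCl4 livers, so their values are not independent. Ltbp1 passed the filter only with its DEN+CCl4 libraries, so its place among the lower genes is no test.

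FPKM did not overlap with DEN+CCl4 and was lower for 6 of the 9 genes in DWYG-M livers (25.6% of all genes) and for 6 in DWYG-H livers (23.2% of all genes). For 5 of them, Tgfb3, Tgfbr2, Ltbp1, Ltbp2 and Ltbp3, all 4 DWYG livers lay below both DEN+CCl4 livers (16.2% of all genes). Ltbp2 had the largest difference. It was 1.38 lower in DWYG-M than in DEN+CCl4 livers on the log2 scale (SE 0.30, 95% interval -2.07 to -0.69, edgeR adjusted p = 0.213), and 1.10 lower in DWYG-H livers (SE 0.30, 95% interval -1.78 to -0.42, adjusted p = 0.361). The DWYG-H value was -0.70 without DEN+CCl4 replicate 2. DESeq2 called Ltbp2 lower in DWYG-M livers (adjusted p = 0.0143) and for both doses together (adjusted p = 0.00577). In edgeR both doses together gave a log2 fold change of -1.24 (adjusted p = 0.132), and -1.55 without DEN+CCl4 replicate 1 (adjusted p = 0.0499).

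Tgfb3 was 0.86 lower in DWYG-M and 0.89 lower in DWYG-H than in DEN+CCl4 livers on the log2 scale (edgeR adjusted p = 0.266 and 0.361), and Ltbp3 was 0.64 and 1.03 lower (adjusted p = 0.361 and 0.325), with a DWYG-M value of -0.37 without DWYG-M replicate 2. Ltbp1 was 0.43 lower in DWYG-M and 0.92 lower in DWYG-H livers (adjusted p = 0.616 and 0.487). Tgfbr2 differed by -0.56 in DWYG-M and -0.50 in DWYG-H livers (adjusted p = 0.403 and 0.638), and by -0.15 and -0.086 without DEN+CCl4 replicate 2. Tgfb1 differed by -0.64 in DWYG-M and -0.34 in DWYG-H livers (adjusted p = 0.354 and 0.763), and these values were -0.24 and 0.06 without DEN+CCl4 replicate 2. Tgfbr1, Ltbp4 and Smad7 lay between -0.38 and -0.17 at both doses. Tgfbr1 stood at 0.06 in DWYG-M and 0.16 in DWYG-H livers without DEN+CCl4 replicate 1. Tgfb2, in the fit with no filter, differed by -0.66 in DWYG-M and -1.04 in DWYG-H livers (adjusted p = 0.462 and 0.360).

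Between the doses, 2 multiples against 1 of the clinical dose, no difference was called in edgeR. Of the 9 genes 0 were called, against 0% of all genes. At an unadjusted p under 0.05 there were 0 of the 9, against 1.66% of all genes, and DESeq2 and limma called 0. The largest difference was that of Ltbp1, with 0.56 and 0.86 FPKM in DWYG-H livers and 0.94 and 1.05 in DWYG-M livers (log2 fold change -0.49, 95% interval -1.23 to 0.24). Ltbp3 differed by -0.39, Tgfb1 by 0.30 and Ltbp2 by 0.28, and the other 5 tested genes lay between -0.21 and 0.10. That interval does not show that the doses act alike on Ltbp1.

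Against control, the DWYG-treated livers stayed higher for Tgfb3, Tgfbr2, Ltbp2 and Ltbp3. These 4 genes rose at each dose and 0 fell, in edgeR. Of all genes, 4.35% were called higher and 0.603% lower for DWYG-M, and 6.59% higher and 1.09% lower for DWYG-H. Tgfb3, Ltbp2 and Ltbp3 passed the filter only through the injured livers, so the count is no test of them. Ltbp2 was 3.21 higher in DWYG-M (SE 0.39, adjusted p = 0.00537) and 3.49 higher in DWYG-H (adjusted p = 0.00337) than in control livers on the log2 scale. Ltbp3 was 2.75 and 2.35 higher (adjusted p = 0.00464 and 0.00483), Tgfb3 1.93 and 1.90 (adjusted p = 0.00979 and 0.00755), and Tgfbr2 1.51 and 1.58 (adjusted p = 0.0187 and 0.0126). Ltbp1 was 1.39 and 0.90 higher and did not pass (adjusted p = 0.0613 and 0.162), and Tgfb1 was 0.35 and 0.65 higher (adjusted p = 0.496 and 0.157). Ltbp1 was called for DWYG-M by DESeq2 (adjusted p = 0.0117), by edgeR with no filter on low values (0.0426) and by limma on log2(TPM + 1) (0.0283). Tgfb1 was called for DWYG-H on all 3 limma scales (adjusted p of 0.0109 to 0.0469) and when DEN+CCl4 replicate 1 or replicate 2 was left out (0.0403 and 0.0478), and for DWYG-M by limma on log2(TPM + 1) (0.0344).

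These calls depended on having both control livers, and so did most calls over all genes. For DWYG-M the calls of the 4 genes were lost without control replicate 1 and without control replicate 2. For DWYG-H they were lost without control replicate 2, and all but that of Ltbp2 without control replicate 1. Tgfbr2 was also lost without DWYG-M replicate 1 (adjusted p = 0.105) and without DWYG-H replicate 1 (adjusted p = 0.0587). The log2 fold changes of these 4 genes over control without a single library stayed above 1.28 in each case.

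Other genes of the pathway were read from 6 lists, with the 10 genes above left out, and the counts below are for DEN+CCl4 against control in edgeR over all genes. Of all genes tested, 15.1% were called higher, 7.12% lower and 22.2% in either direction, and differences between lists were not tested. Plat, Mmp2, Eln, Fbn1, Thbs2, Fmod, Lox, Pmepa1 and Inhbb were under 1 FPKM in both control libraries. They passed the filter only through the injured livers, which favours a rise. Counts and medians of the lists thus describe the genes and are no test of them. Of 19 tested activators and anchors 10 rose and 0 fell, with a median log2 fold change of 0.93 against -0.01 over all genes. Plat, the tissue plasminogen activator, had 6.77 and 7.63 FPKM in DEN+CCl4 livers and 0.23 and 0.16 in control livers (log2 fold change 4.97, SE 0.30, adjusted p = 0.000362). Mmp2, a gelatinase, rose by 3.51 (adjusted p = 0.000394). Eln, the elastin of elastic fibres, rose by 3.74 (adjusted p = 0.00101), and Fbn1, the fibrillin to which LTBPs attach, by 2.98 (adjusted p = 0.000791). The integrin chains Itgav and Itgb5 and Thbs1, Mmp14, Lrrc32 and Nrros were the other 6 called. Without control replicate 2 the count was 6 of 19, where 5.5% of all genes were called higher, and on log2(TPM + 1) it was 17, where 45.8% were.

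The list of matrix proteins that bind TGF-beta also holds other binders of TGF-beta or related ligands, such as Fst and Vasn. Of its 7 tested genes 6 rose and 0 fell, with a median of 2.25. Fstl1, a secreted glycoprotein related to follistatin, rose by 2.89 (adjusted p = 0.000887), Thbs2 by 2.25 (adjusted p = 0.00103), Fmod, the proteoglycan fibromodulin, by 2.26 (adjusted p = 0.00475) and Bgn, biglycan, by 1.45 (adjusted p = 0.0073). The count was 3 of 7 without control replicate 1, where 7.23% of all genes were called higher and Bgn had an adjusted p of 0.0512. Of 24 tested response genes of the pathway 17 rose and 0 fell, with a median of 1.97. Lox, which crosslinks collagen, had 2.07 and 2.28 FPKM in DEN+CCl4 livers and 0.13 and 0.08 in control livers (log2 fold change 4.09, adjusted p = 0.000475). Col3a1 rose by 3.59, Col1a2 by 3.99 and Junb, a transcription factor of the AP-1 family, by 2.03. The response list shares 8 genes with the myofibroblast marker list described below.

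Of 18 tested Smads and Smad regulators 2 rose and 3 fell, with a median of 0.03. The 5 of 18 called are near the share of all genes called in either direction. The count of lower genes was 1 in the fit of only these groups, where 2.8% of all genes were called lower. It was 1 on all 3 limma scales as well, where 1.16% to 1.94% were. The count of higher genes was 10 on log2(TPM + 1), where 45.8% of all genes were called higher. Both counts were also lower in some fits without a single library. The called ones were Tgif1, a co-repressor of SMAD2 and SMAD3, with 25.15 and 22.34 FPKM in DEN+CCl4 livers and 9.08 and 6.31 in control livers (log2 fold change 1.34, adjusted p = 0.0018), and Pmepa1, a membrane protein that binds SMADs (1.59, adjusted p = 0.00924). Smad9, a Smad of the bone morphogenetic protein branch, fell by 1.51 (adjusted p = 0.00812). Ppm1a and Zfyve9 were called lower as well, Zfyve9 with a log2 fold change of -0.51 (adjusted p = 0.0423). That call was lost in DESeq2 (adjusted p = 0.0578), on all 3 limma scales, in the fit of only these groups and in 7 of the 8 fits without a single library, and its value on log2(TPM + 1) was 0.03. Pmepa1 was lost without control replicate 1 (adjusted p = 0.06) and without control replicate 2 (adjusted p = 0.0626).

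Of 7 tested further receptors and co-receptors edgeR called 0 in either direction, with 1 at an unadjusted p under 0.05, and DESeq2 called 0. On both FPKM scales limma called 2, where it called 23.2% and 24% of all genes. On log2(TPM + 1) it called 6, where 46.9% of all genes were called. Acvrl1, the endothelial type I receptor, had the smallest p (log2 fold change 0.62, adjusted p = 0.0732). Of 12 tested other ligands of the superfamily 2 rose and 1 fell. Inhbb, a subunit of activin B, had 7.70 and 14.59 FPKM in DEN+CCl4 livers and 0.38 and 0.48 in control livers (log2 fold change 4.45, adjusted p = 0.00181). Gdf15, a stress-induced ligand, had 35.86 and 6.10 FPKM in DEN+CCl4 livers and 2.11 and 1.53 in control livers (log2 fold change 3.17, adjusted p = 0.0195), and was lost without control replicate 1 or 2 (adjusted p = 0.0869 and 0.12). Without DEN+CCl4 replicate 1 its log2 fold change was 1.59. Inhbc, an inhibin subunit made by hepatocytes, fell by 1.70 (adjusted p = 0.00319).

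**Figure D4:**
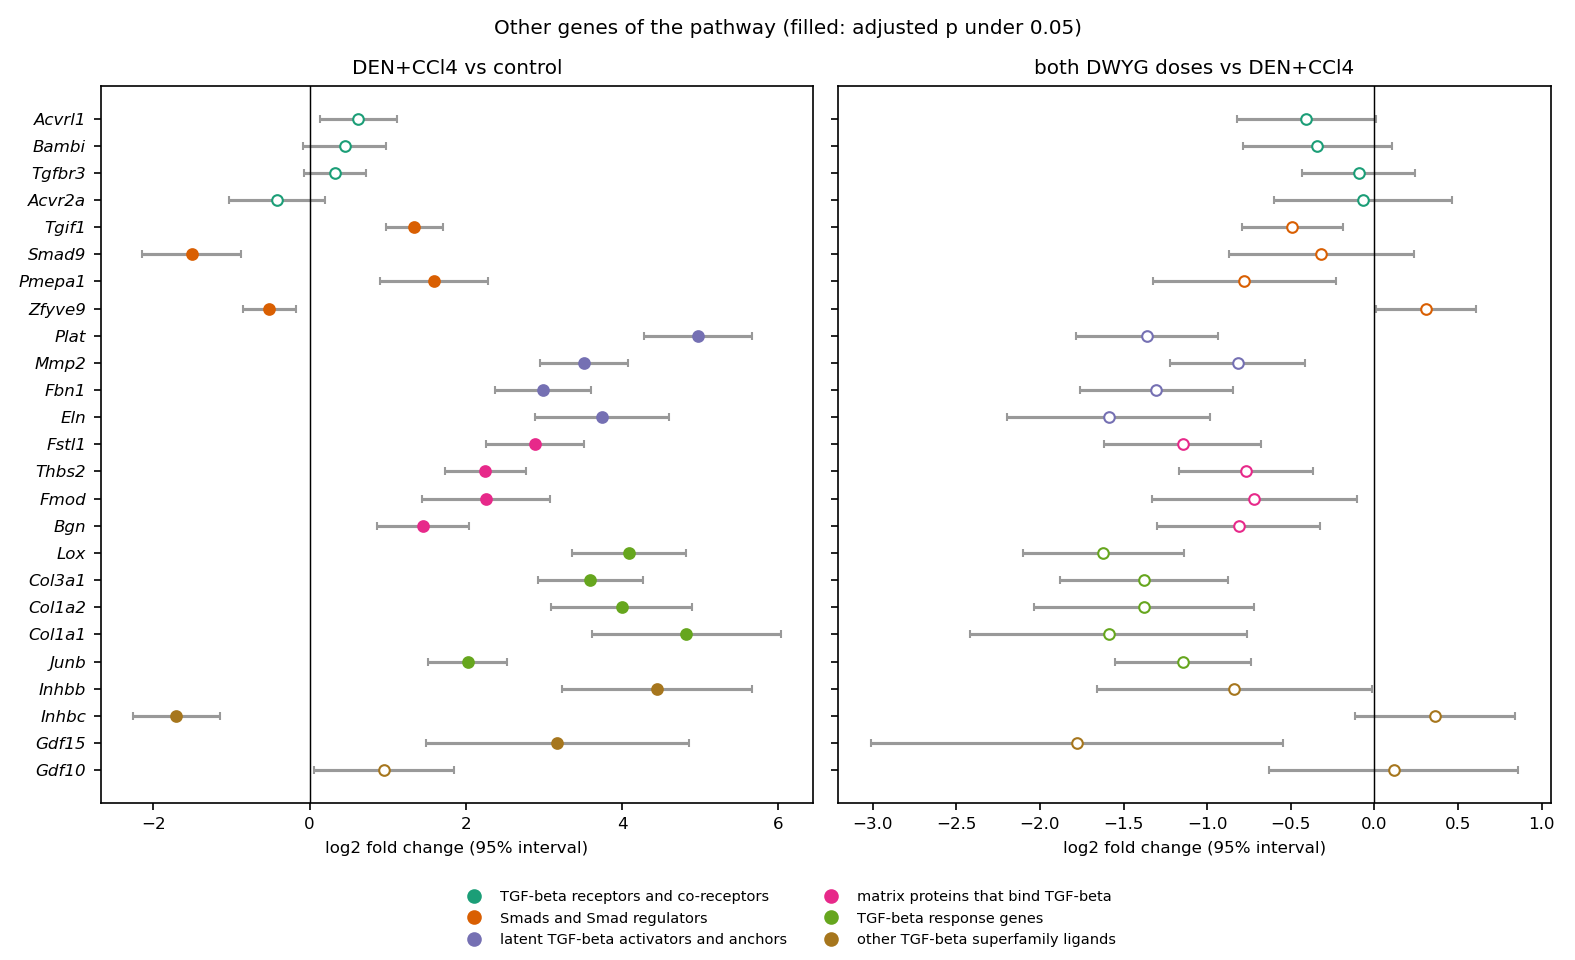
Log2 fold changes with 95% intervals from the edgeR fit for the genes named from the 6 pathway lists, DEN+CCl4 over control and both DWYG doses over DEN+CCl4, coloured by list, with called genes filled. Genes were picked within each list by smallest p, Plat (4.97) lies farthest above 0 over control, and no gene is filled for DWYG over DEN+CCl4.

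With both DWYG doses set against DEN+CCl4 livers, edgeR called 0 genes in each of the 6 lists. Genes at an unadjusted p under 0.05 and lower numbered 14 of 24 response genes, 7 of 19 activators and anchors, 5 of 7 matrix proteins, 2 of 18 Smads and regulators, 2 of 12 other ligands and 0 of 7 receptors, where 8.19% of all genes were lower at that p. DESeq2 called 10 response genes, 4 activators and anchors, 2 matrix proteins and 1 other ligand lower, where it called 1.65% of all genes lower. On log2(TPM + 1) limma called 2 response genes and 1 of the activators and anchors lower, where it called 0.215% of all genes lower. With no filter on low values edgeR called 4 response genes and 3 activators and anchors lower, against 0.158% of all genes. Without DEN+CCl4 replicate 1 edgeR called 6 response genes, 3 activators and anchors and 1 matrix protein lower, against 0.422% of all genes. The named genes with the smallest p were Lox (log2 fold change -1.62, adjusted p = 0.0865) and Plat (-1.36, adjusted p = 0.0989). Fbn1 (-1.30), Junb (-1.15), Col3a1 (-1.38), Eln (-1.59) and Fstl1 (-1.15) followed, each with an adjusted p of 0.101. Lox reached 1 FPKM in 2 libraries only, both DEN+CCl4, so its lower value with DWYG is no test. In the response list 21 of 24 genes were below 0 and the median was -0.78, against -0.02 over all genes.

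Some marker lists of liver cell types, those of myofibroblasts, portal fibroblasts and mesothelium, and cholangiocytes, moved with the genes that rose. In whole liver, fewer cells of a type and less RNA per cell cannot be told apart. Some markers, Lox and Col1a1 among them, passed the filter only through the injured livers. Of all genes tested, 15.1% were called higher and 7.12% lower in DEN+CCl4 than in control livers. Of 10 myofibroblast markers 10 rose in DEN+CCl4 livers, and their summed FPKM was 149 and 230 in DEN+CCl4 livers, 74.8 and 67.6 in DWYG-M livers, 70.5 and 85.5 in DWYG-H livers, and 18.3 and 20.5 in control livers. Of 9 tested markers of portal fibroblasts and mesothelium 8 rose, with sums of 73.8 and 81.8 in DEN+CCl4 livers, 41.2 and 44.5 in DWYG-M livers, 40.9 and 50.6 in DWYG-H livers, and 18.9 and 17.4 in control livers. Of 9 tested cholangiocyte markers 9 rose, with sums of 436 and 626 in DEN+CCl4 livers and 44.2 and 40.4 in control livers. The DWYG livers lay between, at 344 and 263 for DWYG-M and 361 and 361 for DWYG-H.

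The other lists moved less. Their endothelial count of higher markers, and the macrophage and hepatocyte counts of lower ones, lay near the shares of all genes (15.1% higher, 7.12% lower). Of 10 markers of quiescent stellate cells 3 rose and 2 fell, with sums of 134 and 149 in DEN+CCl4 livers and 97.2 and 117 in control livers. The macrophage list (Kupffer cells included) had 5 of 12 markers higher and 1 lower, with sums of 390 and 267 in DEN+CCl4 livers and 265 and 209 in control livers, and of 10 endothelial markers 2 rose, with sums of 196 and 139 in DEN+CCl4 livers and 154 and 126 in control livers. Platelets store Tgfb1 protein, and the 7 platelet markers summed to 9.89 and 7.08 FPKM in DEN+CCl4 livers and 2.99 and 2.82 in control livers, with 1 of 2 tested called. Pf4 made up most of the sum in DEN+CCl4 livers, at 6.74 and 4.27 FPKM against 1.06 and 0.66 in control livers. Ppbp had 1.74 and 1.23 against 0.51 and 1.07, and Itga2b 0.65 and 0.59 against 0.74 and 0.52. The sum thus rests mainly on Pf4. T and NK cell markers summed to 3.53 to 27.4 FPKM over the libraries, with 0 of 3 tested called, and B and plasma cell markers to 23.5 and 21.9 in DEN+CCl4 livers and 9.68 and 4.32 in control livers, with 1 of 3 tested called. Of 10 hepatocyte markers 1 fell, and their sum lay between 66015 and 98066 in all libraries, and no library lacked them. No marker was at 0 in both libraries of a group. The part of cell type make-up in the values of the 10 genes was not tested.

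**Figure D5:**
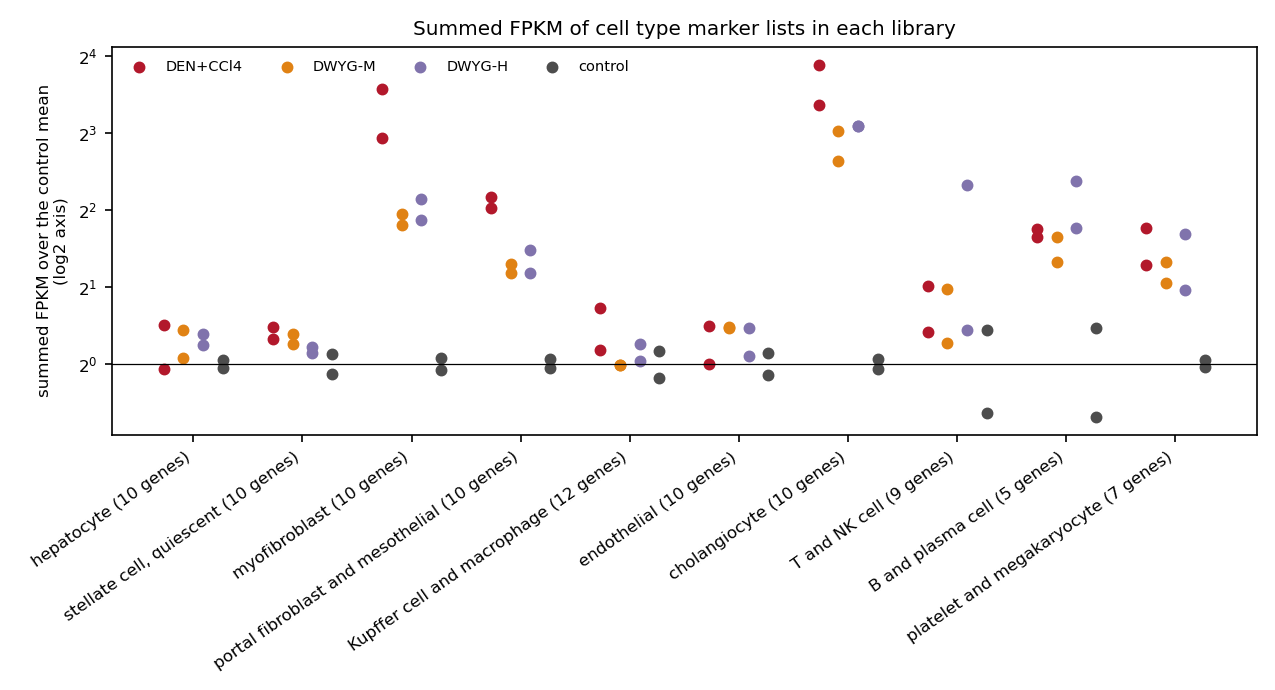
Summed FPKM of each marker list in each library, divided by the mean of the 2 control libraries, on a log2 axis, with points for libraries in the order DEN+CCl4, DWYG-M, DWYG-H and control. The myofibroblast sum is 149 and 230 in DEN+CCl4 livers and 18.3 and 20.5 in control livers, and the hepatocyte sum lies between 66015 and 98066 in all libraries, near the line of the control mean.

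Profiles most like those of the named genes were found by the mean absolute difference of centred log2 CPM over the 8 libraries, among 11377 genes, as a description with no test. For Tgfb1 these were Pld3, a lysosomal protein of the phospholipase D family, at 0.06, and Caskin2 and Bak1, a pore-forming protein of apoptosis, at 0.09, where Tgfb1 itself ranged over 1.36. For Tgfb3 they were Fstl1 at 0.09, Myof at 0.11 and Ccdc80 at 0.12, where Tgfb3 ranged over 3.09. For Tgfbr2 they were Plscr1 and Anxa5 at 0.07 and Disp1 at 0.09, with a range of 2.47. For Ltbp2 they were Sh3pxd2b at 0.19, Col1a2, a chain of type I collagen, at 0.22 and Igsf9 at 0.23, with a range of 4.75. The 8 libraries share their groups, so any gene that differs between control and injured livers by a like amount scores well.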

How the data were processed

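Whole-liver RNA of 8 mice was measured. Per the labels' protocols, an Ambion kit served for extraction and SMART-Seq mRNA LP for libraries, starting from 2 µg of total RNA. The submitters' processing notes name GRCm39. Aligner, counting tool, annotation and strand setting: not given in the sources used here. Per the file headers, each gene has 4 kinds of value per library. The deposited expected counts (the read count column) are gene totals that the authors made before any scaling, of which 89.8% to 91.5% per library were whole within 0.005. They were rounded for the tests. The deposited FPKM values were scaled by the authors to gene length and library size, and the deposited TPM values sum to 1000000. The deposited signal, a normalized read count, is from its values the count rounded up times a factor per library (0.842 to 1.26), and was used for nothing else. The table's group averages were left out.

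Genes at 1 FPKM or more in 2 libraries or more, 11606 in all, were tested with edgeR 4.0.16 (quasi-likelihood, TMM, R 4.3.3), in a single model of the 4 groups with 4 residual degrees of freedom. P-values were adjusted by Benjamini-Hochberg over these genes in each comparison, and a call means an adjusted p under 0.05. SE and 95% intervals are from that model, as is every adjusted p with no other tool beside it. The alternatives were DESeq2 1.42.0, limma 3.58.1 on log2(FPKM + 1), log2(FPKM + 0.1) and log2(TPM + 1), RLE scaling, library sizes without albumin and major urinary proteins, no filter on low values, a replicate block, a model of only the groups compared, and each library left out in turn, with the lone library of its group assumed to vary like the others. Log2 CPM had a prior count of 2. Named genes were the 10 genes, per list up to 4 with the smallest p in DEN+CCl4 against control and up to 2 in both DWYG doses against DEN+CCl4, and the 3 genes most like each tested ligand, Ltbp2 and Tgfbr2. The genes, lists and tests were chosen with earlier results of these data known. Reads shared by near-identical, overlapping or antisense genes are uncertain. FPKM and TPM take no account of a change in a few abundant genes. The median log2 difference of all genes between DEN+CCl4 and control was -0.01 with TMM, 0.21 on log2(FPKM + 1) and 0.50 on log2(TPM + 1).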

Additional observations from a re-analysis of the deposited data

How the results depend on the processing

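The number of the 9 tested genes called was 6 in DEN+CCl4 against control, 0 in each comparison of DWYG with DEN+CCl4 and of the doses, and 4 for each dose against control. With the replicate block these counts were 6, 0, 0, 0, 0, 4 and 4. Replicate numbers come from the labels, and same-numbered libraries deviated together with correlations of -0.142 to 0.255 over the 6 pairs of groups. With 2 libraries per group, these values cannot show whether the numbers pair the mice. DESeq2 called 1 gene for DWYG-M and 1 for both doses against DEN+CCl4, where it called 1.77% and 2.77% of all genes. Leaving out each library in turn gave 4 to 6 genes for DEN+CCl4 against control, 0 to 0 for DWYG-M, 0 to 0 for DWYG-H and 0 to 1 for both doses against DEN+CCl4, 0 to 0 between doses, 0 to 4 for DWYG-M and 0 to 5 for DWYG-H against control. Over all genes too, calls against control were fewer without either control library. With limma on TPM, 8 genes were called in DEN+CCl4 against control, beside a median shift of all genes of 0.50. Tgfbr1 (0.90, adjusted p = 0.039) and Ltbp4 (0.57, adjusted p = 0.0453) were among them. On that scale 46.9% of all genes were called.

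Directions turned only for small differences that were not called, except Zfyve9. Against control, Ltbp4 in DWYG-M livers stood at 0.093 on log2(FPKM + 1), 0.10 on log2(FPKM + 0.1) and 0.32 on log2(TPM + 1), and in DWYG-H livers at 0.15 on log2(TPM + 1). Smad7 stood at 0.14 in DWYG-M livers on log2(TPM + 1), and in DWYG-H livers at 0.051, 0.071 and 0.25 on these 3 scales. The medians of all genes there were 0.17, 0.20 and 0.40 for DWYG-M and 0.16, 0.20 and 0.41 for DWYG-H. In DEN+CCl4 against control on log2(TPM + 1), Acvr2a was 0.15 and Zfyve9 0.035. Leaving out single libraries gave -0.31 to 0.39 for Ltbp4 in DEN+CCl4 and -0.27 to 0.043 in DWYG-M against control, and -0.47 to 0.21 in DWYG-M and -0.58 to 0.10 in both doses against DEN+CCl4. Smad7 ran from -0.090 to 0.21 in DEN+CCl4 against control and -0.11 to 0.31 between doses, Tgfb1 from -0.66 to 0.062 in DWYG-H against DEN+CCl4, Tgfb3 from -0.071 to 0.0078 and Tgfbr2 from -0.13 to 0.29 between doses. Tgfbr1 ran from -0.71 to 0.057 in DWYG-M, -0.60 to 0.16 in DWYG-H and -0.65 to 0.11 in both doses against DEN+CCl4, -0.11 to 0.29 between doses, and -0.10 to 0.21 in DWYG-M and -0.062 to 0.35 in DWYG-H against control. Fold changes of genes near 0 in control livers shrink with a pseudocount: Ltbp2 in DEN+CCl4 against control was 1.87 on log2(FPKM + 1). The cause of the turns in direction was not tested. With 2 livers per group, counts of 10 to 37 reads for Tgfb2, Tgfb3, Ltbp1, Ltbp2 and Ltbp3 in control livers limit the precision of their fold changes.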
